A study of Helianthus annuus with 9 samples.

Results

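A set of 26 annotated sunflower genes stood at least 4 times higher in seeds on day 37 than on day 7 and on day 22. They were chosen from the 52513 features of the mRNA table that carry a numeric gene ID. The rule took genes with a day 37 mean of at least 5 FPKM (a read level corrected for transcript length and scaled to the reads of its library), at least 4 times both the day 7 mean and the day 22 mean, and with a day 22 mean under 4 times the day 7 mean. Those day means of the deposited values chose the genes, so their levels on the 3 days are a description and carry no test. The same 2 fold limits on day 37 were met by 90 genes with that level. In the other 64 the day 22 mean was at least 4 times the day 7 mean. That limit is also met when both means are 0 FPKM. The lowest day 22 mean of the 64 was 0 FPKM, so not all of them had risen by day 22.

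The seeds came from field-grown plants of the line L-1-OL-1, which has a high oleic acid content. They were collected on day 7, day 22 and day 37, with no treatment and with 3 libraries of ribosome-depleted total RNA per day. The labels give no starting point for the days and do not say if same-day libraries stem from different plants, so any p-value covers the spread between these libraries only, which may be technical. A seed holds many kinds of cell, and fewer cells of a type and less RNA per cell cannot be told apart.

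A sunflower seed first builds its coat and the tissues of the embryo, then fills the embryo with oil and storage proteins, and in its last phase dries out. In seeds of many plants the last phase is known for a late set of transcripts, among them those of protective hydrophilic proteins and small heat shock proteins, many of them under control of the hormone abscisic acid. Neither the files nor the gene table used here pair gene IDs with protein products, so which of these roles, if any, the 26 genes have is not known, and the seed label could not be checked against marker genes. Of the 26 genes, 22 matched the gene table, all as protein-coding genes, and are named LOC followed by the ID. The other 4 are named by their ID.

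Library sums of FPKM differed and bear on every level given here. Over the whole mRNA table they lay between 542177 and 549131 on day 7, between 228550 and 331317 on day 22 and between 149870 and 277263 on day 37, and replicate 3 had the lowest sum on both late days. The deposited values hold no counts, so the depth of the libraries is unknown.

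Summed over the 26 genes, the level was 91.3, 97.4 and 94.8 FPKM in replicates 1 to 3 of day 7. It was 143, 105 and 74.7 FPKM on day 22, and 1241, 914 and 276 FPKM on day 37. All 3 day 37 sums thus lay above the 6 earlier ones, and replicate 3 was the lowest library on each late day. As a share of all FPKM of the table, the genes held 0.0168% to 0.0177% on day 7, 0.0327% to 0.0431% on day 22, and 0.448%, 0.382% and 0.184% in replicates 1 to 3 of day 37. The median level over the genes was 1.80 FPKM on day 7, 2.99 FPKM on day 22 and 19.3 FPKM on day 37. Only 6 genes reached a day 37 mean of 50 FPKM, and 6 stayed under 10 FPKM.

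**Figure D1:**
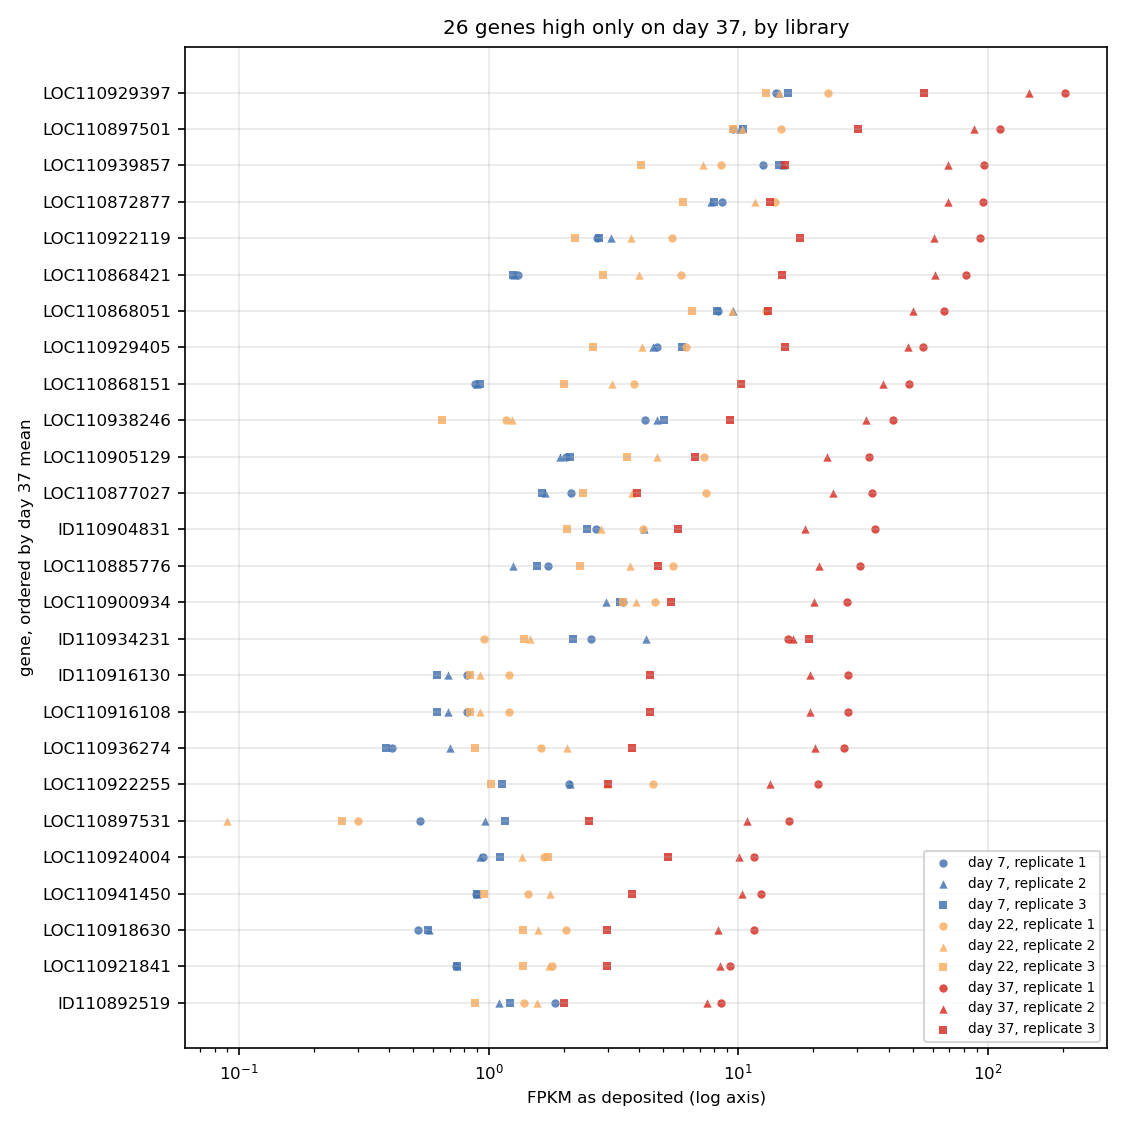
FPKM (log axis) of each of the 26 genes in all 9 libraries, with genes ordered by day 37 mean; colours mark days and symbols mark replicates. The day 37 points stand to the right for 21 genes in all 3 libraries, and the square of replicate 3 is the lowest day 37 point for 25 of the 26 genes.

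The most abundant gene on day 37 was LOC110929397. It stood at 14.1, 14.6 and 15.8 FPKM on day 7, at 22.8, 14.5 and 12.9 FPKM on day 22, and at 204, 146 and 55.5 FPKM on day 37. Every day 37 library was above every earlier one, and the day 37 mean of 135 ± 74.7 FPKM was 8.07 times the day 22 mean of 16.7 ± 5.29 FPKM (SD, n = 3 each). Among annotated genes it ranked 109 by day 37 mean. The next, LOC110897501, had 9.50, 10.2 and 10.5 FPKM on day 7, 14.8, 10.4 and 9.48 FPKM on day 22, and 112, 88.2 and 30.1 FPKM on day 37. Its day 37 libraries did not overlap with the earlier ones either, while those of day 22 and day 7 overlapped in both genes.

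LOC110872877 showed what replicate 3 did to a gene of similar level. Its values were 8.60, 7.80 and 8.03 FPKM on day 7, 14.1, 11.7 and 6.01 FPKM on day 22, and 95.3, 69.0 and 13.4 FPKM on day 37. Replicate 3 of day 37 lay just below the highest day 22 library, so the days overlapped. LOC110868051 stood at a mean of 8.66, 9.63 and 43.4 FPKM on the 3 days, and its day 37 replicate 3, at 13.2 FPKM, lay just above the highest earlier one, at 12.9 FPKM.

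Some genes were close to absent before day 37. LOC110916108 had 0.820, 0.690 and 0.620 FPKM on day 7, 1.21, 0.920 and 0.840 FPKM on day 22, and 27.4, 19.4 and 4.42 FPKM on day 37. Its day 37 mean was 17.2 times its day 22 mean, the largest ratio to the higher of the 2 earlier days among the 26 genes. The gene with ID 110916130 was listed with the same value in each of the 9 libraries, so the pair may hold 1 measurement listed under 2 IDs, and the 26 genes hold 25 different profiles. Such identical rows were rare at this level, with 14 genes in 7 pairs among the 5055 annotated genes with a day 37 mean of at least 5 FPKM. LOC110922119 was also low early, at 2.71, 3.08 and 2.78 FPKM on day 7 and 5.43, 3.73 and 2.21 FPKM on day 22, against which day 37 gave 92.8, 60.7 and 17.6 FPKM. With 1 FPKM added to each mean, it had the largest ratio of the set, 12.1.

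In 5 genes the days overlapped, and in each of them day 37 replicate 3 lay below day 22 replicate 1. Besides LOC110872877 these were LOC110905129, LOC110877027, LOC110885776 and LOC110922255. LOC110905129 had 2.05, 1.94 and 2.11 FPKM on day 7, 7.30, 4.74 and 3.57 FPKM on day 22, and 33.5, 22.7 and 6.69 FPKM on day 37. LOC110885776 had 1.73, 1.25 and 1.57 FPKM on day 7, 5.48, 3.69 and 2.33 FPKM on day 22, and 30.6, 21.02 and 4.75 FPKM on day 37. In both, replicates 1 and 2 of day 37 were far above all earlier libraries, and replicate 3 lay among those of day 22. LOC110922255 did the same at a lower level, with day 37 values of 20.9, 13.4 and 3.0 FPKM and a highest earlier library of 4.56 FPKM.

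The 6 genes under 10 FPKM on day 37 were LOC110897531, LOC110924004, LOC110941450, LOC110918630, LOC110921841 and the gene with ID 110892519. LOC110924004 had 0.950, 0.920 and 1.11 FPKM on day 7, 1.67, 1.36 and 1.73 FPKM on day 22, and 11.6, 10.1 and 5.24 FPKM on day 37. LOC110921841 had 0.740, 0.750 and 0.750 FPKM on day 7, 1.80, 1.75 and 1.37 FPKM on day 22, and 9.27, 8.44 and 2.98 FPKM on day 37. None of these 6 overlapped between day 37 and the earlier days. The gene with ID 110892519 came closest, with a lowest day 37 library of 2.00 FPKM and a highest earlier one of 1.85 FPKM.

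The step between day 7 and day 22 differed among the genes, and its size and direction depended on the scaling. The rule set only an upper limit on this step, and the ratio of the day 22 mean to the day 7 mean ran from 0.219 to 3.34. For 11 genes the means were within 1.5 times of each other. For 8 genes the day 22 mean was at least 2 times the day 7 mean, and for 7 genes it was lower than on day 7. The day 22 libraries lay wholly above those of day 7 for 12 genes and wholly below them for 4. The share of all features that did so was not computed, so nothing is read from this. All counts of this step so far are of the deposited values. After each library was scaled on 386 annotated genes that had 10 FPKM or more in all 9 libraries, the means of 2 genes were within 1.5 times of each other, 19 genes had a day 22 mean of at least 2 times the day 7 mean, and 8 of these reached 4 times. Only 4 genes then had a lower mean on day 22 than on day 7, and LOC110929405 and the genes with IDs 110904831 and 110892519 turned from lower to higher.

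Among the genes with a dip, LOC110938246 stood at 4.23, 4.74 and 5.03 FPKM on day 7, stood at 1.18, 1.24 and 0.650 FPKM on day 22, and at 41.7, 32.4 and 9.25 FPKM on day 37. The 3 days did not overlap. The day 37 mean was 27.1 times that of day 22 but 5.95 times that of day 7. LOC110897531 was also lower on day 22, with 0.530, 0.970 and 1.16 FPKM on day 7, 0.300, 0.0900 and 0.260 FPKM on day 22, and 15.9, 10.8 and 2.53 FPKM on day 37. LOC110939857 was already at 12.6, 15.1 and 14.6 FPKM on day 7 and stood at 8.53, 7.23 and 4.08 FPKM on day 22. On day 37 it had 96.6, 69.0 and 15.4 FPKM, so replicate 3 barely passed the day 7 level. The dips were shallower with the scaling on 386 genes. The day 22 mean was then 0.428 times the day 7 mean for LOC110938246, against 0.219 times as deposited. It was 0.514 times for LOC110897531, against 0.244 times, and 0.905 times for LOC110939857, against 0.469 times.

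At the other end, LOC110868421 had 1.31, 1.26 and 1.25 FPKM on day 7, 5.88, 3.99 and 2.88 FPKM on day 22, and 81.3, 61.3 and 14.9 FPKM on day 37. LOC110868151 ran close beside it, with 0.880, 0.900 and 0.920 FPKM, then 3.81, 3.11 and 2.01 FPKM, then 48.4, 37.9 and 10.3 FPKM. Both had day 22 libraries wholly above day 7, and their day 22 means were 3.34 and 3.31 times the day 7 means. LOC110936274 stood at a mean of 0.500, 1.52 and 16.8 FPKM on the 3 days, with a ratio of 3.05 between the first 2. These 3 genes were the nearest to the limit of 4 on that ratio. Just outside it were LOC110868359 at 4.25, LOC110877178 at 4.27 and LOC110894167 at 4.47.

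**Figure D2:**
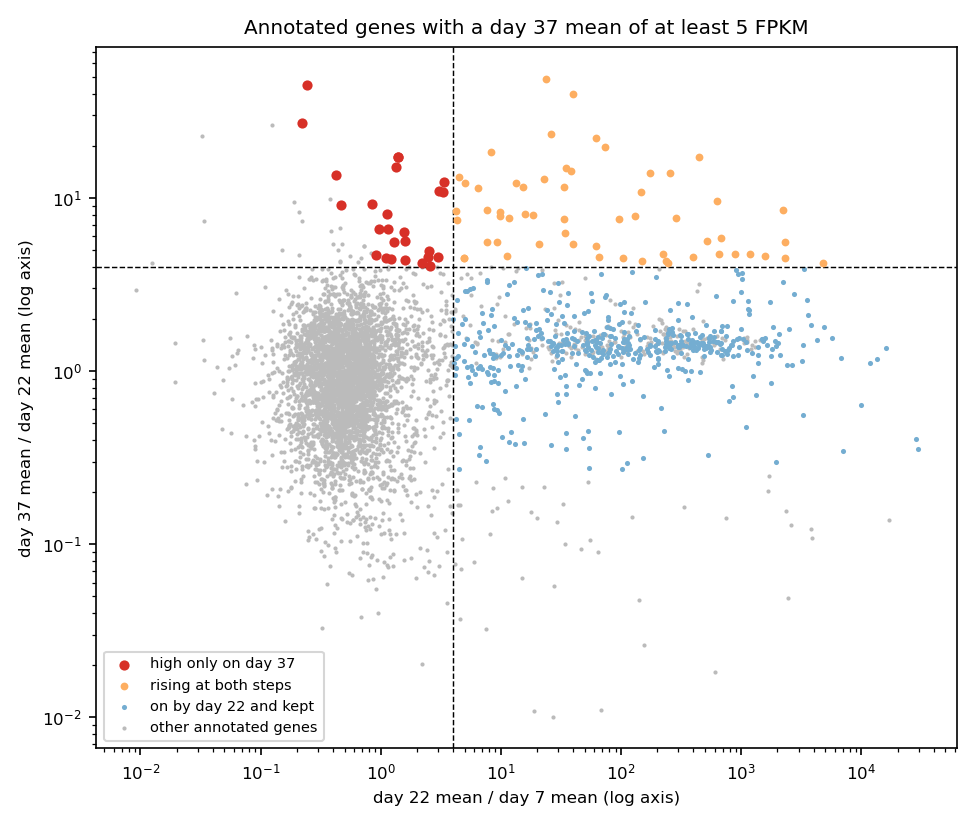
Ratio of day 22 to day 7 means (horizontal, log axis) and of day 37 to day 22 means (vertical, log axis) for annotated genes with a day 37 mean of at least 5 FPKM and all means above 0; dashed lines mark the limit of 4. The 26 genes lie above the horizontal line and left of the vertical one, at ratios between 0.219 and 3.34 for the first step.

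At the limit of 4 on the day 37 ratio, LOC110905129 was just inside at 4.03, LOC110921841 at 4.21 and LOC110939857 at 4.28. LOC110924681, at 3.99, LOC110912885, at 3.99, and LOC110886467, at 3.98, were just outside. The lowest day 37 means inside were 5.99 FPKM for the gene with ID 110892519, 6.90 FPKM for LOC110921841 and 7.61 FPKM for LOC110918630. LOC110899461 at 4.61 FPKM, LOC110889654 at 4.36 FPKM and LOC110873824 at 4.04 FPKM were the nearest below 5 FPKM. At the fold limit the set thus passes into other genes without a gap, while the nearest genes lie farther apart at the limits on level and on the early ratio.

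The number of genes found rested on single libraries. It was 65 without day 37 replicate 3, 14 without day 37 replicate 1 and 40 without day 22 replicate 1. All 26 genes were among the 65 and the 40, and the 14 were all among the 26. Under 18 other settings of the rule, 6 genes met it every time: LOC110929397, LOC110897501, LOC110922119, LOC110929405, LOC110916108 and the gene with ID 110916130. Another 6 genes were lost under at least 5 of the settings, LOC110905129, LOC110921841 and the gene with ID 110892519 under 7 each.

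In the fit across all mRNA features (limma on log2(FPKM + 1), with Benjamini-Hochberg adjusted p under 0.05 and a log2 change of at least 1), 25 of the 26 genes were called higher on day 37 than on day 22, where 0.843% of all 36401 tested features were. All 26 were called higher on day 37 than on day 7, where 39.4% of features were. Since the genes were chosen on these contrasts, nothing is read from these counts. LOC110877027 was the gene without the call, with 2.13, 1.69 and 1.64 FPKM on day 7, 7.42, 3.77 and 2.39 FPKM on day 22, and 34.2, 23.96 and 3.92 FPKM on day 37. Between day 22 and day 7, a contrast the rule also used, LOC110868421 and LOC110868151 were called higher on day 22, where 34.1% of features were, and LOC110938246 was called lower, where 24.9% were. All 26 genes passed the filter of at least 1 FPKM in at least 3 libraries, and 5 of them passed only with the help of day 37 libraries.

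The background of these calls moved with the scaling and with single libraries. For day 37 against day 22, 307 features were called higher, and the higher calls made up 4.83% of all calls. This share was 29.0% with median-of-ratios scaling and 23.5% with quantile normalization, and the log2 change of the median feature tested was 0.49 and 0.05 with these scalings, against 0.01 as deposited. With the scaling on 386 genes the share was 4.57%, close to that as deposited. For day 37 against day 7 the higher calls were 61.9% of all calls with the scaling on 386 genes and 66.0% with median-of-ratios scaling, against 50.4% as deposited. For day 22 against day 7 they were 78.9% with the scaling on 386 genes, against 57.8% as deposited. For day 37 against day 22, the count of features called higher was 1285 without day 37 replicate 3. It was 197 without day 37 replicate 1 and 148 without day 37 replicate 2. Each of the 26 genes had a positive log2 change for day 37 against both earlier days under every scaling and with every library left out. The rule had asked for at least 4 times both earlier days, so this sign was nearly fixed and nothing is read from it.

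The spread among libraries was wider on day 37 than on the earlier days in the median of the 26 genes. In the median gene the standard deviation was 9.0% of the mean on day 7, 32.4% on day 22 and 64.0% on day 37. Over the 5055 annotated genes with a day 37 mean of at least 5 FPKM it was 5.58%, 32.2% and 60.1%. The wide spread on the late days was thus not particular to the 26 genes. Replicate 3 was the lowest day 37 library for 25 genes and the lowest day 22 library for 23. On day 37 it was also the lowest for 88.1% of those 5055 genes. The same held for 93.8% of the 64 genes that met the limit of 4 at both steps. For day 22 such a share was not computed. The ratio of day 37 replicate 3 to replicate 1 had a median of 0.197 in the 26 genes. Over the 5055 annotated genes with a day 37 mean of at least 5 FPKM its median was 0.225. Replicate 3 was thus about as low in the median annotated gene of that level. This ratio had a median of 0.244 in the 64 genes that met the limit of 4 at both steps. In 611 genes that gained at least 4 times by day 22, to at least 5 FPKM, and then stayed within 4 times of that level, the median was 0.888. Their ratios spread widely, with quartiles of 0.213 and 1.525, and replicate 3 was the lowest day 37 library for 307 of them. These differences were not tested, since genes of 1 library are not replicates.

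**Figure D3:**
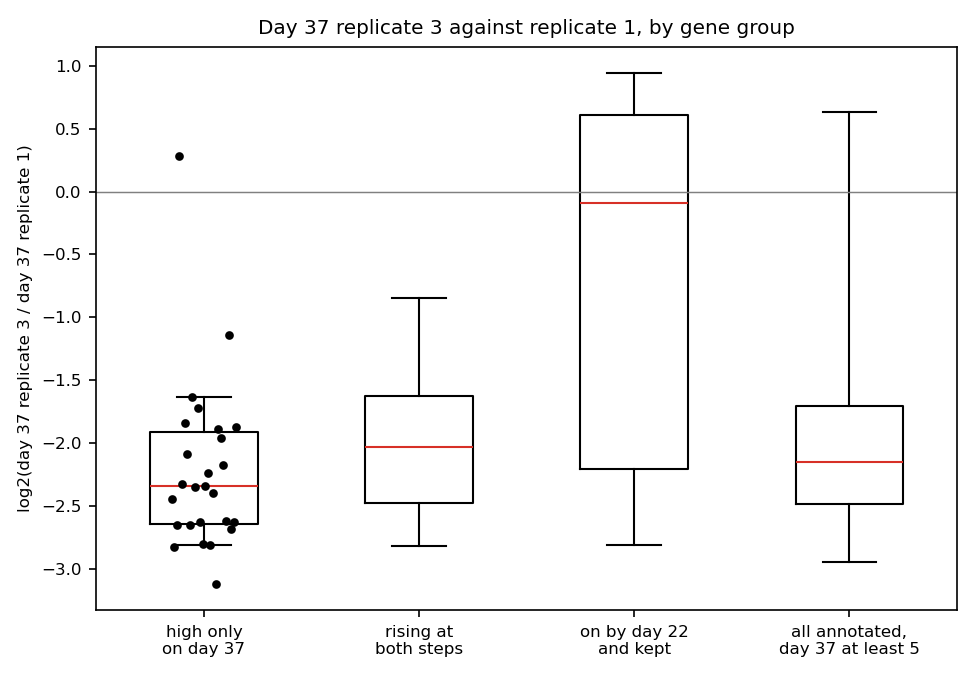
Log2 ratio of day 37 replicate 3 to replicate 1 in 4 gene groups; boxes span the quartiles with the median in red, whiskers the 5th to 95th percentile, and dots are the 26 genes. For 25 of the 26 genes the ratio is below 0 on this scale, and their box lies beside that of all annotated genes with a day 37 mean of at least 5 FPKM.

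Scaling each library on the 386 abundant genes brought the day 37 libraries together for most of the set. The scaled values of LOC110929397 were 133, 125 and 169 in replicates 1 to 3, and those of LOC110938246 were 27.2, 27.8 and 28.1. LOC110868151 stood at 31.6, 32.5 and 31.3. The standard deviation of the median gene was then 15.2% of the mean on day 22 and 14.6% on day 37. All 26 genes then had day 37 libraries above all 6 earlier ones, as had 3.11% of all tested features and 3.8% of the annotated ones. As deposited this held for 21 genes, and for 7.09% of all tested features and 5.44% of the annotated ones. Because the rule had used these contrasts, the counts show only how the libraries line up. With this scaling 14 of the 26 genes still met the rule. Of the 12 that did not, 9 had a day 37 mean under 4 times an earlier one and 8 a day 22 mean of at least 4 times day 7, with some in both.

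Between libraries of the same number on the 2 late days, day 37 was above day 22 for all 26 genes in each pair. The median ratio was 8.55 in replicate 1, 7.97 in replicate 2 and 3.47 in replicate 3. At least 4 times was reached by 26, 26 and 11 genes. The rule had used the means of these same libraries, so these ratios and counts are a description only. The share of all features was not computed, and the labels do not say if the numbers pair libraries across days.

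A single gene went against the rest in replicate 3. The gene with ID 110934231 had 2.57, 4.28 and 2.17 FPKM on day 7, 0.960, 1.46 and 1.39 FPKM on day 22, and 15.8, 16.6 and 19.2 FPKM on day 37. It was the only one of the 26 that was highest in replicate 3 on day 37, and it had the smallest spread, with the highest library 1.22 times the lowest. The next smallest was 2.21 times for LOC110924004, and the largest was 8.73 times for LOC110877027. Scaling on the 386 genes widened its day 37 values to 10.3, 14.2 and 58.4, the opposite of its effect on the median gene. The same gene was also the only one of the 26 with assembled transcripts in the deposited list of assembled transcripts, which covers only some chromosomes. They lie on NC_035436.1 between 176803319 and 176808061, in a genome build that no source names. A locus of 2 exons on the plus strand, from 176803319 to 176803705 and from 176804371 to 176807126, is marked there as overlapping an exon of the gene, and a locus of 1 exon on the minus strand, from 176803996 to 176808061, as lying on its other strand. No FPKM row carries either locus number, and no circular RNA of the deposited list overlapped them. No source used here says if the library kit keeps strand, so reads of the 2 strands cannot be told apart.

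The places of the 22 matched genes in the gene table were then compared, since the rule did not use position. No 2 were direct neighbours, but LOC110922119 and LOC110868421 were 19 entries apart, LOC110868151 lay another 41 entries away on the same chromosome, and LOC110929397 and LOC110929405 were 19 entries apart on another. LOC110929405 stood at 4.74, 4.56 and 5.93 FPKM on day 7, 6.15, 4.10 and 2.62 FPKM on day 22, and 55.0, 48.0 and 15.4 FPKM on day 37, with no overlap between day 37 and the earlier days. Genes within 15 entries on either side of the 22 were measured in 377 cases and tested in 229. This window was chosen after values of neighbours had been seen.

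Of the 229 tested neighbours, none of them in the set, 11 were called higher on day 37 than on day 22 in the limma fit, which is 4.80%, against 0.907% of all annotated features tested. Among the 11, LOC110868413, LOC110868440 and LOC110926546 reached 1 FPKM in day 37 libraries only, so they had to be higher there to be tested. The 0.907% is 239 features and includes 25 of the 26 genes, while the neighbours include none. Lower calls among the neighbours were 49, or 21.4%, against 21.5%. Against day 7, the risen neighbours were 61, or 26.6%, against 24.3%. With a window of 5 entries, 8 of 78 were called higher on day 37 than on day 22. With 15 entries this count was 6 without day 37 replicate 1 and also 6 without day 37 replicate 2. It was 17 with median-of-ratios scaling and with quantile normalization, where the risen share of all features was larger too. The median log2 change of the 229 neighbours for day 37 against day 22 was -0.24, beside -0.25 over all annotated features tested. The shares are a description, with no test.

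Most of these 11 neighbours lay in 1 stretch. The 91 entries from 15 before LOC110868151 to 15 after LOC110868421 hold 3 of the 26 genes and 33 other tested genes, of which 7 rose, or 21.2%. Outside it, 4 of 199 tested neighbours rose. The neighbours named from here on are among the 11 called on this contrast. Their values and p-values therefore describe the selection and are no separate test. Next to LOC110868421, the gene LOC110868429 had 0.0300, 0.0900 and 0.110 FPKM on day 7, 3.62, 3.03 and 2.14 FPKM on day 22, and 61.6, 48.3 and 15.1 FPKM on day 37. Its log2 change for day 37 against day 22 was 3.25 ± 0.42 (SE, limma adjusted p 5.65e-05). All 3 of its day 37 libraries lay above the 6 earlier ones, as for 5.44% of annotated features tested. LOC110868429 is not among the 26 because its level on day 22 was more than 4 times that of day 7. LOC110868359, 3 entries from LOC110922119, had 0.360, 0.370 and 0.610 FPKM on day 7, 2.36, 2.08 and 1.26 FPKM on day 22, and 24.3, 17.9 and 5.54 FPKM on day 37, a log2 change of 2.35 ± 0.40 (SE, limma adjusted p 5.48e-04). LOC110868378, LOC110868413, LOC110868440 and LOC110926546 reached day 37 means of 15.8, 2.40, 3.50 and 4.20 FPKM, with log2 changes over day 22 of 1.86, 1.37, 1.59 and 1.68. The last 3 of these reached 1 FPKM in day 37 libraries only, so they had to be higher there to be tested, and they were not tested when a day 37 library was left out. LOC110926238, with a mean of 3.47 FPKM on day 7, 0.977 FPKM on day 22 and 3.12 FPKM on day 37, was the last of the 7, and its day 37 mean was below its day 7 mean.

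Between LOC110929397 and LOC110929405 lie LOC110929403 and LOC110929404, which were listed with the same values in all libraries, at 0.757 FPKM on day 7, 3.74 FPKM on day 22 and 16.8 FPKM on day 37 in the mean (log2 change over day 22 of 1.82 ± 0.31, SE, limma adjusted p 5.48e-04). In the 2 other places, LOC110940025, 2 entries from LOC110939857, stood at 0.310, 10.7 and 66.6 FPKM and LOC110905130, 2 entries from LOC110905129, at 3.03, 10.0 and 36.5 FPKM on the 3 days. How reads that fit several near-identical copies were assigned is not stated, so pairs with the same values are uncertain. With such pairs counted once, 10 of 228 tested neighbours were called higher on day 37 than on day 22, or 4.39%, against 0.903% of annotated features, and 3 of 198 outside the first stretch. Whether neighbouring genes share reads was not tested.

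**Figure D4:**
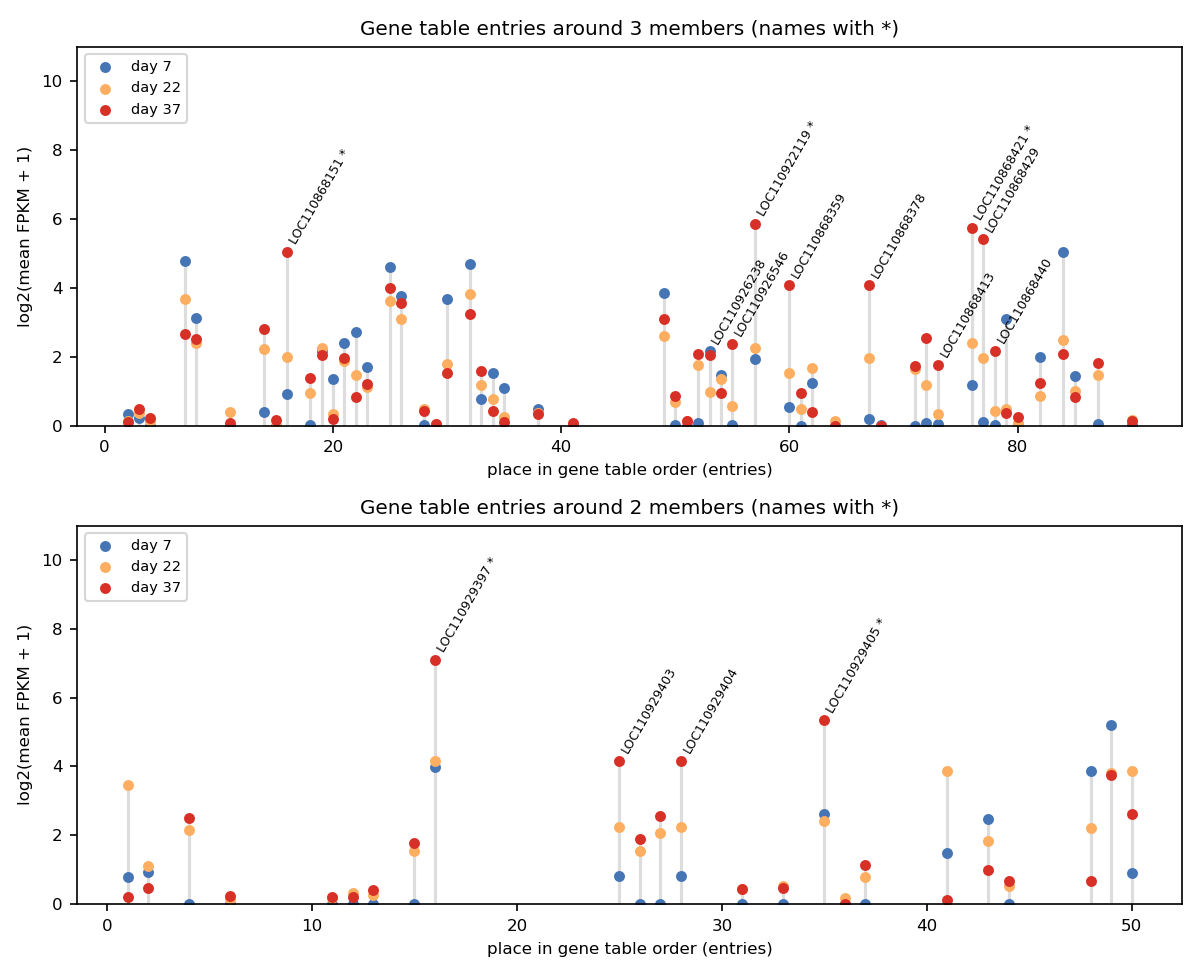
Mean level on each day, as log2(FPKM + 1), of the genes in the 2 stretches of the gene table that hold 3 and 2 of the 26 genes (names with a star), plotted by place in table order; the other named genes were called higher on day 37 than on day 22 in the limma fit. The red day 37 point is above both earlier days at the 3 starred genes and at 6 of the 7 other named genes of the upper panel.

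Among the assembled loci of the mRNA table, which the rule leaves out, 9 met the same limits. They were not part of the set and are not described here.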

How the data were processed

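The authors deposited mRNA levels as FPKM per library, per the file headers; the library total behind it is not stated. The submitters' processing notes name, with no role, RSEM 1.2.12, HISAT2 2.0.4, DESeq2 1.4.5 and Bowtie2 2.2.5. The deposited circular RNA signal, scaled in a way not stated, and the deposited exon positions were used only to look for transcripts at the 26 genes. The mRNA table holds 65535 features, the row limit of an old spreadsheet with its header, so it may be part of a longer one. Gene names, classes and order came from the RefSeq gene table of HanXRQr2.0-SUNRISE, which matched 47455 of 52513 numeric IDs.

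Features reaching 1 FPKM in 3 or more libraries were fitted as log2(FPKM + 1) in 1 model of all 9 libraries with limma 3.58.1 in R 4.3.3 (trended, robust), and tested on simulated data. On this scale changes of low genes are understated. Other steps used Python 3.11.15, numpy 2.4.6, pandas 2.3.3 and matplotlib 3.10.9. The genes, lists and tests were chosen with earlier results of these data known. Lists by product or protein motif could not be used, for want of products and protein sequences. Genes were named by day 37 mean (12), by ratio with 1 FPKM added (8), at the limits of the rule (3 on each side), by spread (4 at each end) and by closeness to another of the set. The named neighbours, the genes with overlapping days and the scaled values were chosen after values were seen.

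The labels number libraries 1 to 3 on each day. Deviations from the day mean correlated between same-numbered libraries of day 37 and day 22 at 0.767, 0.149 and 0.781 over 36401 features. Between day 7 and the late days they did so at -0.0629 to 0.0639. By a limit of 0.1 on every same-numbered pair, the late days were taken as paired for the ratios of same-numbered libraries. The main fit did not use the replicate number. Deviations within a day cancel out, so these correlations are not independent. Replicate 1 of day 37 correlated with replicate 3 of day 22 at -0.778, and replicate 3 with replicate 1 at -0.753. Each late day had its highest library sum of FPKM in replicate 1 and its lowest in replicate 3. The fall went from 331317 to 228550 (day 22) and from 277263 to 149870 (day 37), with replicate 2 between. The factors of the scaling on 386 genes had the same order. Whether this shared order of the libraries gave the correlations was not tested. The pairing is thus at most a hint from the data, not the design. It is weak for replicate 2, since day 37 replicate 2 correlated better with day 22 replicate 1, at 0.528.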

Additional observations from a re-analysis of the deposited data

How the results depend on the processing

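The number of genes meeting the rule was 93 with median-of-ratios scaling, 148 with quantile normalization, 44 with medians in place of means, 56 at a fold of 3, 16 at a fold of 6 and 51 with both late libraries numbered 3 left out (added after seeing the data). Leaving out single libraries gave 14 to 65. For day 37 against day 22 the count of features called higher was 1722 with median-of-ratios scaling, 1643 with quantile normalization, 575 with a pseudocount of 0.1, 189 with a filter at 5 FPKM, 885 without both late libraries numbered 3, and 148 to 1285 without single libraries. For day 37 against day 7 it was 2883 with a filter at 5 FPKM and 6391 with annotated genes alone, against 14346. For day 22 against day 7 these settings gave 3266 and 5640, and quantile normalization 7681, against 12407. The 11 neighbours called higher on day 37 than on day 22 became 17 with median-of-ratios scaling, 17 with quantile normalization, 7 with a filter at 5 FPKM and 6 to 13 without single libraries, all added after seeing the data. Of the 26 genes, 19 to 26 were called for that contrast without single libraries. The cause of each shift was not tested, except that the filter and the annotated genes alone test fewer features. With the replicate number as a block, 404 features were called higher on day 37 than on day 22, against 307, and 26 of the 26 genes were called, against 25, LOC110877027 being the added one; the block changed no other call of the 26 genes for day 37. Of 918 recomputed log2 changes of the 26 genes, 891 moved by less than the spread of the day 37 replicates and none changed sign. That spread was the widest of the 3 days in the median gene, and the rule had nearly fixed the sign. These counts thus say little on how stable the set is. All 145 recomputed log2 changes of the 9 neighbours that stood at least 4 times above both earlier days kept their call, 3 of these genes being untested without a day 37 library. The planned comparison of long non-coding loci at the 26 genes gave no value, because no such locus had an FPKM row. The unknown depth limits statements on genes under about 1 FPKM.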
